A study of Mus musculus with 11 samples.

Results

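Interferon response genes are the transcripts that a cell makes more of after it has sensed an interferon. The set described here was a fixed list of 45 mouse genes. It held 33 targets of type I interferon, 11 interferon-induced GTPases and antigen-processing genes that respond strongly to interferon gamma, and Irf1, which responds to both. A gene counted as measured when a probe set carried its symbol and no other, and the brightest such probe set was taken. By this rule 40 of the 45 genes were measured among 19938 genes in all: 31 type I targets, 8 GTPase or antigen-processing genes and Irf1. Isg15, Gbp2, Igtp and Irgm2 lay on probe sets that name several genes, and Ifi44 was not found in the probe-to-gene table used here.

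The 11 Affymetrix Mouse Gene 1.0 ST arrays profiled mammary fibroblasts sorted straight from tissue, without culture. The labels describe CD140+ EpCAM- cells that also lacked the macrophage antigen encoded by Adgre1, whereas the study's methods name stains for CD140a and that antigen but, for these arrays, none for EpCAM. The Normal stage (2 arrays, mice of 8 weeks) came from FVB/n mice without the transgene. Hyperplasia (3 arrays, 4 weeks), Carcinoma (3 arrays, 9 weeks) and Late carcinoma (3 arrays, 12 weeks) came from MMTV-PyMT mice, in which the mouse mammary tumour virus promoter drives the polyoma middle T oncogene in mammary epithelium and tumours arise in steps. The 6 Carcinoma and Late carcinoma arrays are called cancer-associated fibroblasts (CAFs) below, as against the 5 Normal and Hyperplasia arrays. Each array stood for a cohort of mice, so p-values describe the spread between cohorts and not between single mice. In the pooled comparison of CAFs that spread also holds differences between the stages pooled on each side. Stage and age cannot be told apart. Nor can stage and transgene in comparisons that use the Normal arrays, the only ones without it. All values are log2 levels, so a difference of 1 is a doubling of signal, and levels are compared only within a gene.

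Type I interferons bind the receptor built from Ifnar1 and Ifnar2, and the kinases Jak1 and Tyk2 then switch on a complex that contains Stat2 and Irf9 and binds the interferon-stimulated response element (ISRE). Interferon gamma binds Ifngr1 and Ifngr2 and acts at the gamma-activated site (GAS). The products restrict viruses and intracellular microbes, sense foreign RNA, raise antigen presentation and, as with Usp18, shut the pathway down again. Fibroblasts carry both receptors and are classical responders to interferon.

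Of the 40 measured members, 30 had a promoter in the RefSeq table (GRCm38.p6). The ISRE core, spelled GAAANNGAAA and searched on both strands from 250 bases before to 50 bases after the start, was found in 15 of these 30 (50%), against 3.99% of all 27025 genes of the table. The GAS element, spelled TTCNNNGAA, was found in 10 of 30 (33.3%), against 9.55% of all genes, and matches may overlap one another. A gene with several listed promoters counted once. The ISRE core was found in 11 of 22 type I targets (50%) and in 4 of 7 GTPase or antigen-processing genes (57.1%), and GAS in 6 of 22 (27.3%) and 3 of 7 (42.9%). Split by the test in CAFs described below, the ISRE core was found in 5 of the 10 members with a promoter that were lower (50%) and in 10 of the 20 that did not pass (50%), and GAS in 5 of 10 (50%) and 5 of 20 (25%). The bases before the start are shown for the member of each class whose level differed most between CAFs and the other arrays, Ifit3 and Gbp5, and for 1 member of each class that did not pass the test, Rsad2 and Irgm1. Each runs 5′ to 3′ on the gene's own strand, over 250 bases, and capitals mark the letters of an ISRE core or GAS match.
Ifit3, chr19:34583279-34583528 (plus strand): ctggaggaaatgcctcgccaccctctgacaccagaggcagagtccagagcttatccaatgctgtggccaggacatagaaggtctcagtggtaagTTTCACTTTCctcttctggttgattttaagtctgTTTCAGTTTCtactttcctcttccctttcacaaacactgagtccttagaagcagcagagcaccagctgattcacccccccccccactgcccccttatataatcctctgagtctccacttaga
Gbp5, chr3:142496684-142496933 (plus strand): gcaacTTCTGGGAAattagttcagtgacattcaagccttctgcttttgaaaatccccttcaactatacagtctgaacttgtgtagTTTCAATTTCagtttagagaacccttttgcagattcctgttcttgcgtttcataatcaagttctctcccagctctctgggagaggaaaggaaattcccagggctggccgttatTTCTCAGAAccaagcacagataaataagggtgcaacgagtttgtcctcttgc
Rsad2, chr12:26456453-26456702 (minus strand): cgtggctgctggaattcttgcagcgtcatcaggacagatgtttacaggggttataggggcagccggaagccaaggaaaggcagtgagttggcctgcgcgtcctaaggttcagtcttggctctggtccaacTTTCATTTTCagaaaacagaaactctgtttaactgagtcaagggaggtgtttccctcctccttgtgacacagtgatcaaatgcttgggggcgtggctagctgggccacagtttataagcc
Irgm1, chr11:48871421-48871670 (minus strand): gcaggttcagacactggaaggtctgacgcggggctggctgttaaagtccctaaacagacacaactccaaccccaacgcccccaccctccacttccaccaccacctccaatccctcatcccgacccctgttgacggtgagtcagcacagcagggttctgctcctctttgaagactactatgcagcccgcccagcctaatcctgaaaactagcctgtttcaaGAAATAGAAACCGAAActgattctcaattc
The upstream bases of Ifit3 held the ISRE core at 2 places, TTTCACTTTC and TTTCAGTTTC, both read on the opposite strand. Those of Gbp5 held 1 ISRE core (TTTCAATTTC) and 2 GAS matches (TTCTGGGAA and TTCTCAGAA). Rsad2 held 1 ISRE core (TTTCATTTTC) and no GAS match, and Irgm1 held 2 overlapping ISRE cores (GAAATAGAAA and GAAACCGAAA). A match is a run of letters and says nothing of binding in these cells.

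Several arrays stood apart in ways that touch the members. In every probe set, Normal D2 and Late carcinoma D11 averaged to the mean of the other 9 arrays within 0.000144 log2 units, so these 2 arrays are not independent of the rest or of each other; each main result was therefore also fitted with a term for the pair and without the pair. Normal D5 was the lowest of the 5 Normal and Hyperplasia arrays at 36 of the 40 members, against 20.8% of all genes. It lay below Normal D2 at 37 of 40 members by a median of 0.43, against 45.5% of all genes. Hyperplasia D7 was the highest of those 5 arrays at 24 of 40 members (24.1% of all genes), and Late carcinoma D8 the lowest CAF array at 20 of 40 (13.3% of all genes). The Normal stage thus rested on 2 arrays that differed widely in these genes.

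The 11 fibroblast markers had a mean level of 10.89 to 11.30 in the Normal and Hyperplasia arrays and 9.33 to 10.97 in CAFs, with Carcinoma D4 the lowest. All 11 were lower in sign in CAFs, with a median difference of -0.66, and 2 passed, also with the term for the tied pair. Pdgfra, the sorting antigen, lay between 9.21 and 11.35. Markers of other cells were also present and differed between CAFs and the rest. Of 11 macrophage markers 10 were higher in CAFs; the mean of the list ran from 6.38 to 8.25 in CAFs and from 4.86 to 6.24 in the other arrays, and Adgre1, whose product the sort selected against, was 2.32 log2 units higher (adjusted p = 0.00719). Lyz2, a myeloid lysozyme, was 2.83 higher (adjusted p = 0.0035), and 8 of 10 luminal epithelial markers were higher and 1 was lower. Epcam, singled out because the sources differ on its gate, was 2.16 higher (adjusted p = 0.00149). Of 10 T and NK cell markers 4 were lower in CAFs, 1 with the term for the tied pair, and 3 of 5 B cell markers were lower, 1 with that term; the T and NK list ran from 5.14 to 6.59 in CAFs and from 5.86 to 8.11 in the others, highest in Normal D2 (7.45) and Hyperplasia D12 (8.11). Of 6 pan-leukocyte markers and 5 plasmacytoid dendritic cell markers none passed in limma (0 and 2 at an unadjusted p under 0.05), with Ptprc 0.82 lower (adjusted p = 0.191) and Siglech 0.20 lower (adjusted p = 0.483). In sorted bulk RNA a change in the share of a cell type and a change in RNA per cell cannot be told apart, and the part of these cells in the results below was not tested.

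Some members of the interferon response were lower in CAFs than in the pooled Normal and Hyperplasia arrays, and none passed as higher. The gap lay mostly against Hyperplasia. The median member difference was -0.36 in Carcinoma and -0.50 in Late carcinoma against Hyperplasia (-0.04 in each over all genes). Against Normal it was -0.09 and -0.16 (-0.03 in each over all genes). In limma, with adjustment over all 19938 genes at 0.05, 13 of 40 members (32.5%) were lower, against 12.8% of all genes. None was higher, against 12% of all genes, although Trim25 was higher at an unadjusted p of 0.0187. At an unadjusted p under 0.05, 22 members (55%) were lower, against 22% of all genes, and 1 (2.5%) was higher, against 16.4%. The median difference over the 40 members was -0.34, against -0.04 over all genes, and 31 members had a negative sign. All 6 CAF arrays lay below all 5 others at 4 members, Ifit2, Ifi35, Herc6 and Gbp5 (10%, against 7.14% of all genes), and above them at none (7.77% of all genes).

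**Figure D1:**
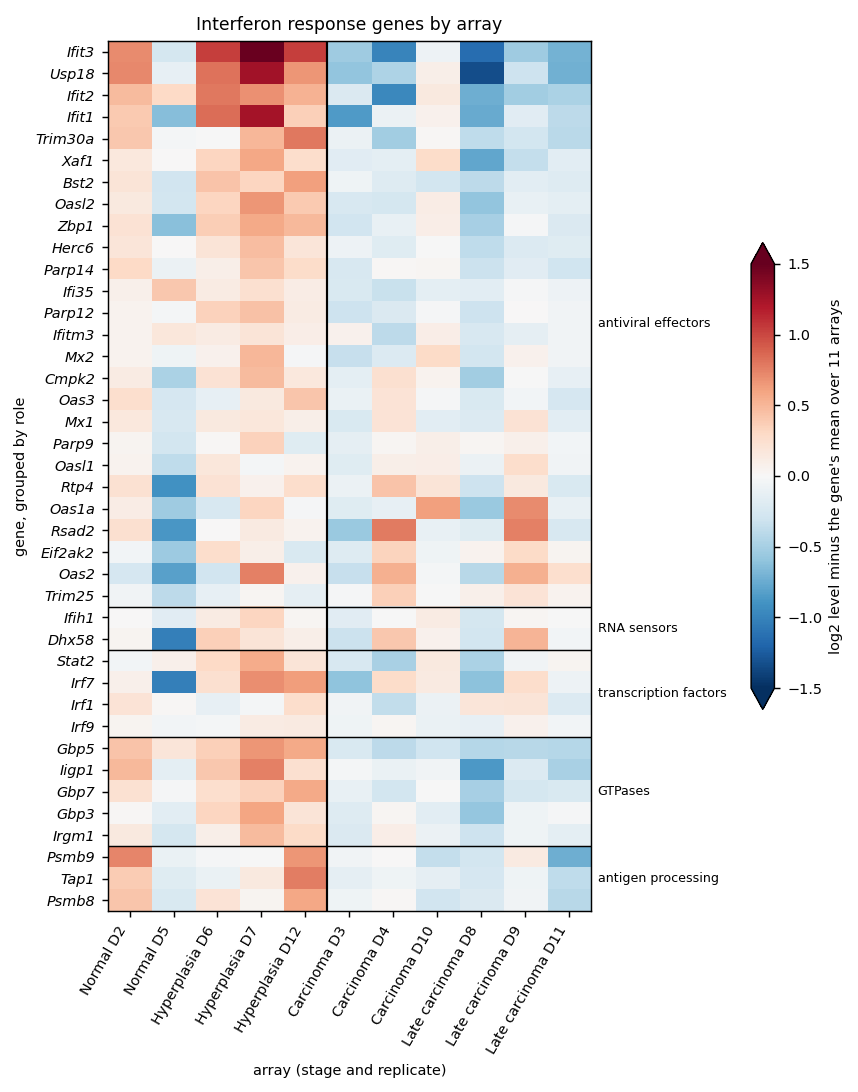
Log2 level of each of the 40 measured members (rows, grouped by role) in each of the 11 arrays (columns), minus that gene's mean over the arrays; the colour scale is capped at 1.5 in both directions and the vertical line parts Normal and Hyperplasia from CAFs. The Hyperplasia columns and Normal D2 are mostly red, Normal D5 is the lowest of the left-hand arrays at 36 of 40 members, and the top rows, led by Ifit3 and Usp18, are blue in most CAF arrays.

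The heat map of all members by array shows 3 patterns, which follow here by role. A band of effectors and GTPases was high in Hyperplasia and low in CAFs. A second group, picked out after its values were seen (Rsad2, Oas1a, Oas2, Rtp4, Eif2ak2 and Dhx58), had its highest CAF level in Carcinoma D4 or Late carcinoma D9. This trait was not particular to the group. Carcinoma D4 was the highest CAF array at 12 of 40 members (28.3% of all genes) and Late carcinoma D9 at 9 of 40 (13% of all genes). The antigen-processing genes were highest in Normal D2 and Hyperplasia D12.

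Antiviral effectors, the largest role, were 26 of the 40 members, and 10 of the 26 were lower in CAFs, against 12.8% of all genes. The median difference over the group was -0.29, with 18 negative signs. Ifit1 encodes a protein that binds viral RNA lacking the host's cap marks, and Ifit2 and Ifit3 encode its partners. Ifit3 had the largest difference. Its level was 9.26 and 8.29 in the Normal arrays, 9.58, 10.03 and 9.58 in Hyperplasia, 8.02, 7.56 and 8.48 in Carcinoma, and 7.41, 8.02 and 7.84 in Late carcinoma. The Hyperplasia arrays were the highest and the CAF arrays the lowest, with only Normal D5 inside the CAF range. The difference was -1.46 ± 0.29 (SE, limma), a 2.76-fold lower signal, with an adjusted p of 0.00461. Its near copy Ifit3b, which may share probe sequence, ran from 5.01 to 5.75 in CAFs and from 5.34 to 6.39 in the other arrays.

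Ifit2 was the effector with the cleanest separation. Its level was 7.02 and 6.84 in Normal, 7.34, 7.23 and 7.08 in Hyperplasia, 6.34, 5.58 and 6.70 in Carcinoma and 5.82, 6.03 and 6.08 in Late carcinoma. Every CAF array lay below every other array. The difference was -1.01 ± 0.18, or 2.02-fold (adjusted p = 0.00252). Ifit1 differed by -0.81 ± 0.30 but did not pass (adjusted p = 0.0699): Normal D5, at 6.87, lay below 4 of the 6 CAF arrays.

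Usp18, the protease that removes Isg15 from proteins and blocks type I receptor signalling, fell with the effectors. Its level was 8.92 and 8.07 in Normal, 9.01, 9.46 and 8.86 in Hyperplasia, 7.60, 7.73 and 8.29 in Carcinoma and 6.87, 7.89 and 7.47 in Late carcinoma. Only Carcinoma D10 rose above the lowest of the other arrays, Normal D5. The difference was -1.22 ± 0.27, or 2.33-fold (adjusted p = 0.00797).

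The remaining 7 effectors that fell did so by smaller steps. Trim30a, a TRIM protein that restrains inflammatory signalling, differed by -0.60 (adjusted p = 0.0164). Xaf1, a pro-apoptotic factor, differed by -0.49 (adjusted p = 0.0496), and Bst2, the tetherin that holds budding virions at the membrane, by -0.47 (adjusted p = 0.0282). Herc6, the mouse ligase that attaches Isg15, differed by -0.38 (adjusted p = 0.00917), and all its CAF levels (7.06 to 7.44) lay below the others (7.45 to 7.90). Ifi35 differed by -0.35 (adjusted p = 0.00651), again with no overlap, from 6.96 to 7.27 in CAFs and from 7.36 to 7.69 in the rest. The ADP-ribosyltransferases Parp14 and Parp12 differed by -0.36 (adjusted p = 0.0243) and -0.34 (adjusted p = 0.0294).

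The other 16 effectors did not pass, and 8 of them had positive signs. Rsad2, which encodes viperin, is an example. Its level was 5.86 and 4.74 in Normal, 5.62, 5.76 and 5.67 in Hyperplasia, 5.06, 6.40 and 5.50 in Carcinoma and 5.44, 6.38 and 5.38 in Late carcinoma. The stages overlapped fully, with the 2 highest levels in Carcinoma D4 and Late carcinoma D9 and the lowest in Normal D5, and the difference was 0.16 ± 0.28 (adjusted p = 0.708). The oligoadenylate synthetases, which activate RNase L on double-stranded RNA, differed by 0.13 (Oas1a), 0.19 (Oas2) and -0.16 (Oas3), none with an adjusted p under 0.373. Their relatives Oasl1 and Oasl2 differed by 0.05 (adjusted p = 0.765) and -0.46 (adjusted p = 0.0587).

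Mx1 and Mx2, of a dynamin-like family known for blocking viral nucleocapsids, differed by -0.12 and -0.19 (adjusted p = 0.457 and 0.304). Eif2ak2, the kinase PKR that halts translation on double-stranded RNA, differed by 0.17 (adjusted p = 0.42). Trim25, the ligase that activates RIG-I, had the largest positive difference of any member, 0.24 ± 0.09 (adjusted p = 0.0659): 7.71 to 8.09 in CAFs against 7.33 to 7.76 in the rest. Among the others, Ifitm3, which blocks virus fusion, differed by -0.23 (adjusted p = 0.0632), Zbp1, a sensor of Z-form nucleic acid, by -0.38 (adjusted p = 0.184), and Cmpk2, a mitochondrial nucleotide kinase, by -0.18 (adjusted p = 0.452). Rtp4 (0.05) and Parp9 (0.02) lay close to no difference, with adjusted p of 0.885 and 0.909.

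Neither cytosolic RNA sensor and none of the 4 transcription factors passed the test in limma; at an unadjusted p under 0.05 these counts were 0 and 1. Ifih1, which encodes MDA5, ran from 7.52 to 7.90 in CAFs and from 7.61 to 8.10 in the rest (difference -0.11, adjusted p = 0.409), and Dhx58, which encodes its regulator LGP2, differed by 0.12 (adjusted p = 0.742). Stat2, which carries the activation domain of the complex that binds the ISRE, had the largest difference of the factors, -0.40 ± 0.14 (adjusted p = 0.0591), and its partner Irf9 one of -0.08 (adjusted p = 0.263). Irf7 amplifies type I interferon production. Its level was 7.95 and 6.86 in Normal, 8.13, 8.58 and 8.51 in Hyperplasia, 7.27, 8.16 and 8.01 in Carcinoma and 7.27, 8.15 and 7.81 in Late carcinoma. The 2 Normal arrays alone spanned 1.09 log2 units here, wider than the difference of 1.0 between the Normal and Hyperplasia means, and the CAF difference was -0.23 ± 0.30 (adjusted p = 0.616). Irf1, the target shared by both interferon types, differed by -0.12 (adjusted p = 0.442).

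The GTPases, which assemble on vacuoles that hold microbes, were all lower in sign. Of the 5, 3 passed, against 12.8% of all genes lower, and the median difference was -0.51. Gbp5, which also promotes inflammasome activation, had the smallest p of all members. Its level was 6.02 and 5.77 in Normal, 5.95, 6.26 and 6.17 in Hyperplasia, 5.37, 5.20 and 5.3 in Carcinoma and 5.16, 5.17 and 5.17 in Late carcinoma. All CAF arrays lay below all others, and the difference was -0.80 ± 0.08, or 1.75-fold (adjusted p = 0.00022). This gene was dim: its mean over the arrays lay below the median gene level of 5.64, as did those of Mx1, Mx2, Oas1a, Oas3 and Rsad2.

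Gbp7 was well above that level. It read 8.24 and 8.00 in Normal, 8.27, 8.37 and 8.59 in Hyperplasia, 7.91, 7.73 and 8.00 in Carcinoma and 7.51, 7.76 and 7.79 in Late carcinoma. Only Carcinoma D10 reached the lowest of the other arrays, and the difference was -0.51 ± 0.11 (adjusted p = 0.00698). Iigp1, an immunity-related GTPase, differed by -0.64 (adjusted p = 0.0265), while Gbp3 (-0.36, adjusted p = 0.086) and Irgm1 (-0.27, adjusted p = 0.121) did not pass. Guanylate-binding and immunity-related GTPases are clustered families of similar genes, so a probe set may also read a close relative.

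None of the 3 antigen-processing genes passed in limma, although all 3 were lower at an unadjusted p under 0.05. The immunoproteasome subunits Psmb8 and Psmb9 differed by -0.37 (adjusted p = 0.0692) and -0.47 (adjusted p = 0.106), and the peptide transporter Tap1 by -0.38 (adjusted p = 0.0915). Psmb9 was 7.17 and 6.34 in Normal, 6.43, 6.44 and 7.10 in Hyperplasia, 6.39, 6.45 and 6.09 in Carcinoma and 6.16, 6.57 and 5.71 in Late carcinoma. It was high in Normal D2 and Hyperplasia D12 alone. These are also the arrays with the highest marker means of T and NK cells, B cells, plasmacytoid dendritic cells and leukocytes at large. The 3-gene mean was 7.33 and 7.48 there against 6.30 to 6.87 in the other 9 arrays. Whether any of these cells had a part in it was not tested.

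**Figure D2:**
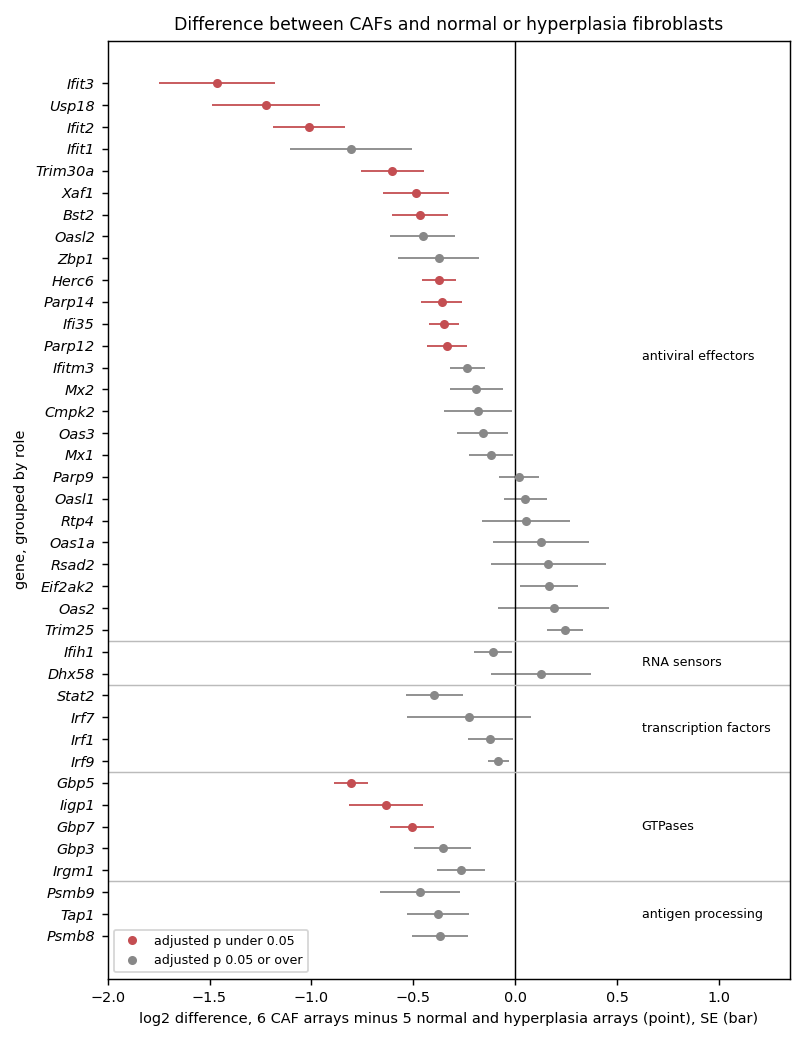
Log2 difference between the mean of the 6 CAF arrays and the mean of the 5 Normal and Hyperplasia arrays for each member (points), with its limma standard error (bars), grouped by role; red points passed an adjusted p of 0.05. The 13 red points are all negative, from -0.34 for Parp12 to -1.46 for Ifit3, and 9 grey points lie at positive values, up to 0.24 for Trim25.

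By class, 10 of 31 type I targets were lower (median difference -0.23) and 3 of 8 GTPase or antigen-processing genes (median -0.42), against 12.8% of all genes. The type I class held both the largest falls and all 9 positive signs, whereas the 8 genes of the other class were all negative, as the plot of differences by role shows. The medians differed by 0.19, and by 0.03 once the 6 dim members had been left out with all other dim genes, so no difference between the classes is read from it. The type I mean per array ran from 6.86 to 7.32 in CAFs and from 6.96 to 7.71 in the others, and Normal D5 was the lowest of those. The mean of the other class ran from 6.65 to 7.0 in CAFs and from 6.97 to 7.57 in the others.

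**Figure D3:**
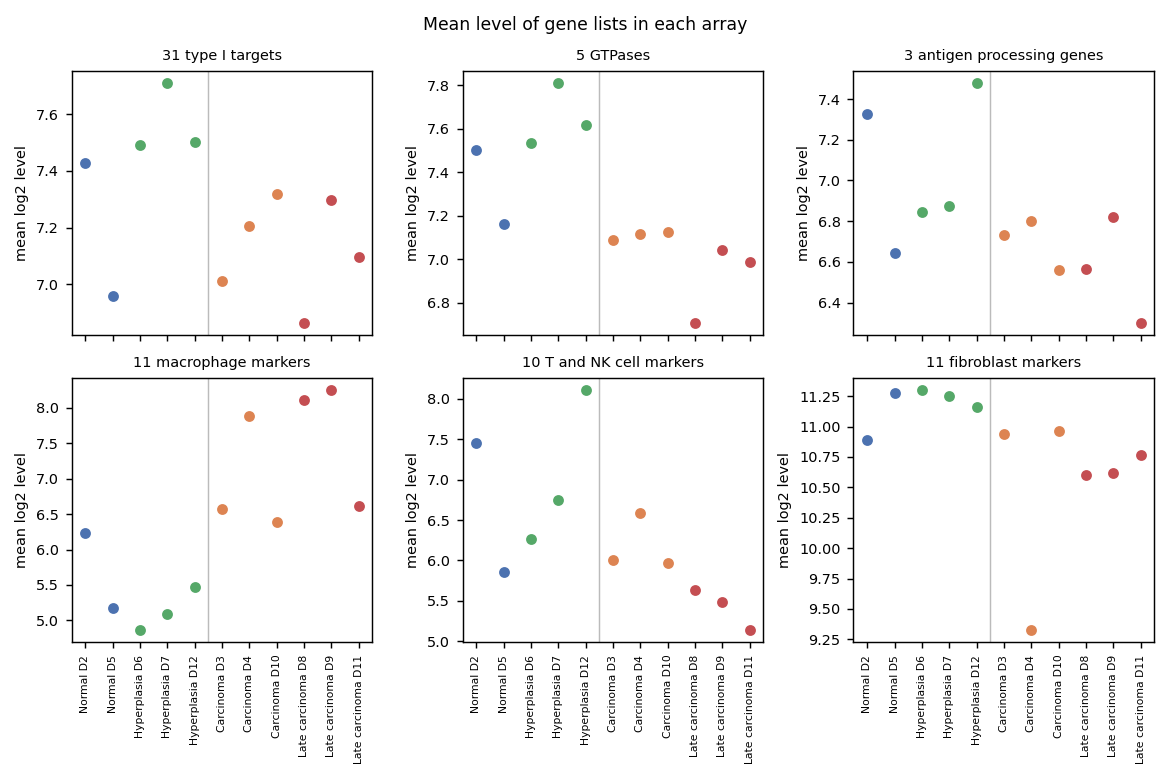
Mean log2 level per array of 3 member groups (top) and 3 marker lists (bottom); each point is 1 array, coloured by stage, and the vertical line parts Normal and Hyperplasia from CAFs. The 5 GTPases lie at or below 7.12 in all CAF arrays and at or above 7.16 in the others, the type I mean of Normal D5 (6.96) lies within the CAF range, and macrophage markers are higher and T and NK cell markers mostly lower in CAFs.

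Stage by stage, most calls lay between Hyperplasia and the tumour stages. Across the 4 stages, limma's F test called 8 of 40 members (20%, against 9.04% of all genes): Gbp5 (adjusted p = 0.00388), Ifit3 (0.0153), Gbp7 (0.0231), Ifit2 (0.0301), Bst2 (0.0314), Herc6 (0.0344), Usp18 (0.0361) and Ifi35 (0.0434). With the term for the tied pair 6 remained called, and Ifit2 (adjusted p = 0.0517) and Ifi35 (adjusted p = 0.0539) were lost. Over all genes the calls fell from 1802 to 1219. In Late carcinoma against Hyperplasia 16 members (40%) were lower, against 6.01% of all genes, and none was higher, against 8.52%. These were 12 type I targets and 4 GTPases. In Carcinoma against Hyperplasia 9 members (22.5%) were lower, against 4.37% of all genes, and none was higher, against 4.89%. Both comparisons share the Hyperplasia arrays, so their counts are not independent of each other.

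The largest stage difference was that of Ifit3 in Late carcinoma against Hyperplasia, -1.98 ± 0.30 or 3.93-fold (adjusted p = 0.0056). It was -1.72 in Carcinoma against Hyperplasia (adjusted p = 0.0135). Usp18 gave -1.70 (adjusted p = 0.0106) and -1.24 (adjusted p = 0.0443), the latter lost at 0.0588 with the term for the tied pair. Iigp1 gave -0.98 (adjusted p = 0.016) and -0.53 (adjusted p = 0.139), and Gbp5 gave -0.96 (adjusted p = 0.00217) and -0.84 (adjusted p = 0.00677). Ifit1, which missed the threshold over all CAFs, differed by -1.25 in Late carcinoma against Hyperplasia (adjusted p = 0.0409), as did Oasl2 by -0.74 (adjusted p = 0.0233). Rsad2 gave 0.05 and -0.03 in the same comparisons, with adjusted p of 0.946 and 0.972.

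**Figure D4:**
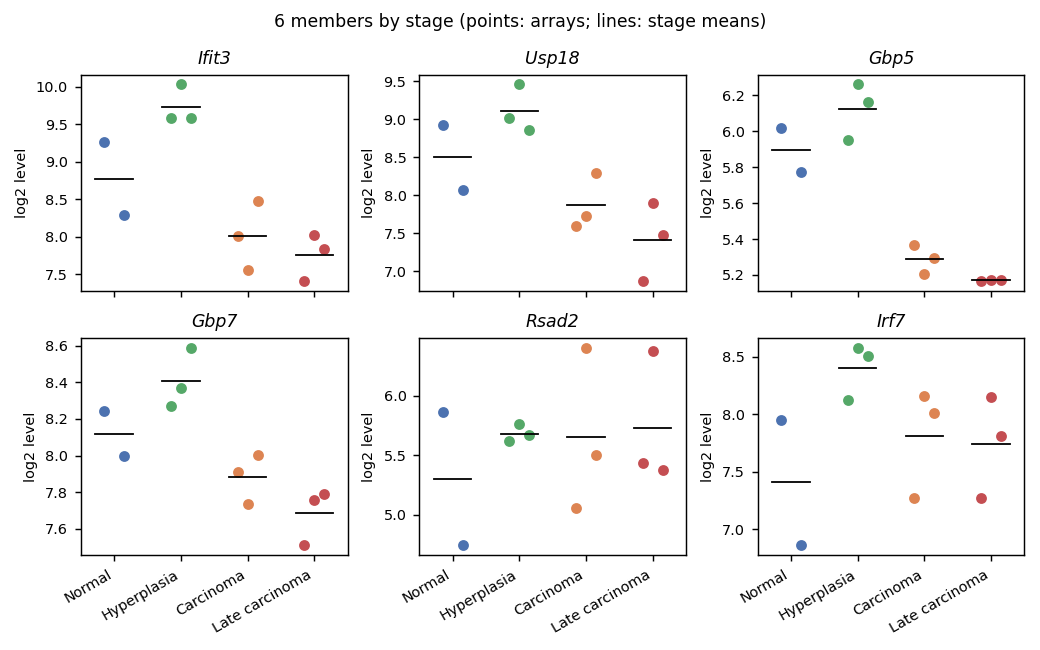
Log2 level of 6 members by stage; points are arrays and lines are stage means, and each panel has its own scale. Ifit3, Usp18, Gbp5 and Gbp7 have their highest means in Hyperplasia and their lowest in Late carcinoma, Rsad2 overlaps across all stages, and the 2 Normal arrays lie far apart for Irf7 and Rsad2.

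Against the Normal arrays, the plot of 6 members by stage shows smaller gaps. Only Gbp5 passed, in Carcinoma against Normal at -0.61 (adjusted p = 0.041) and in Late carcinoma against Normal at -0.72 (adjusted p = 0.00995). The first of these calls was lost with the term for the tied pair (adjusted p = 0.13) and in 7 of the 11 fits that left out 1 array; the second was kept with the term (adjusted p = 0.0233) and lost without either Normal array. That is 1 of 40 members (2.5%) in each, against 0.145% and 1.71% of all genes lower, and no member was higher, against 0.792% and 3.9% of all genes. At an unadjusted p under 0.05, 3 members (7.5%) were lower in Carcinoma, against 9.48% of all genes, and 1 (2.5%) was higher, against 8.55%, so neither share exceeded the background. In Late carcinoma 10 members (25%) were lower, against 10.3% of all genes, and 1 (2.5%) was higher, against 12.3%. Ifit3 differed from Normal by -0.76 and -1.02 and Usp18 by -0.62 and -1.09, none of which passed.

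Hyperplasia and Normal did not separate after adjustment. Members had a positive sign at 37 of 40 (median 0.28, against 0.01 over all genes), but none passed, and 0% of all genes was called in either direction. At an unadjusted p under 0.05, 7 members (17.5%) were higher, against 2.09% of all genes, and none was lower, against 2.13%. Bst2 (0.51) and Zbp1 (0.68) had the smallest p of them and Irf7 the largest difference, 1.0 (adjusted p = 0.999 for each). With 2 Normal arrays this far apart, these values do not show that the stages were alike. Late carcinoma against Carcinoma likewise gave no call among members, and 0% of all genes in either direction; the median difference was -0.11, and with no adjustment 1 member (2.5%) was lower in limma at a p under 0.05, against 2.04% of all genes, and none was higher, against 3.6%, so the lower share was close to the background.

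Of the 13 calls in CAFs, 12 held with the term for the tied pair, against 9.84% of all genes lower; Xaf1 was lost at an adjusted p of 0.0701. Without the pair 9 members were called, against 9.2% of all genes lower. Without Normal D5 there were 20, against 10.9% of all genes, and without Hyperplasia D7 there were 8, against 9.22%. Gbp5, Ifit2, Ifit3, Usp18, Ifi35, Trim30a, Herc6 and Gbp7 passed in all 11 fits that left out 1 array. The Carcinoma against Hyperplasia count fell from 9 to 5 with the term (Ifit2, Usp18, Parp12 and Herc6 were lost). The Late carcinoma count fell from 16 to 14 (Trim30a and Parp12 were lost). Over all genes, those lower fell with the term from 871 to 443 in Carcinoma and from 1199 to 760 in Late carcinoma against Hyperplasia.

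Other genes of the pathway were taken from lists that did not overlap with the members. Of 7 interferon ligands measured, Ifng was lower in CAFs (-0.29, adjusted p = 0.0215), from 4.46 to 4.73 against 4.78 to 5.19 and thus dim throughout. Of 6 receptor genes, Ifngr1 was lower (-0.38, adjusted p = 0.032) and Ifnlr1, the receptor chain for interferon lambda, was higher (0.89, adjusted p = 0.00124). Ifnar1 (-0.18, adjusted p = 0.0852), Ifnar2 (0.03, adjusted p = 0.763) and Ifngr2 (-0.19, adjusted p = 0.276) did not pass. Ifnar2 stayed between 10.05 and 10.38 in all 11 arrays.

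In the signalling list 3 of 8 measured genes were lower and 1 was higher. Jak1 (-0.32, adjusted p = 0.0315) and Jak2 (-0.27, adjusted p = 0.0374; 0.0561 with the term for the tied pair), the receptor kinases, and Irf2, a repressor of Irf1 targets, at -0.34 (adjusted p = 0.00986) fell, and Stat3, which acts downstream of interleukin-6, rose by 0.67 (adjusted p = 0.0014). Of 5 negative regulators, Socs1 was lower (-0.25, adjusted p = 0.0432; 0.064 with the term) and Ptpn2, a phosphatase of JAK and STAT proteins, higher (0.45, adjusted p = 0.0114). Of 7 nucleic acid sensing genes 3 were lower: the kinase gene Ikbke (-0.91, adjusted p = 0.00211), the adaptor Mavs (-0.29, adjusted p = 0.00512) and the DNA sensor Cgas (-0.21, adjusted p = 0.0339; 0.0532 with the term).

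Some targets outside the members were also called lower, to be set against 12.8% of all genes lower and 12% higher. Of 9 other interferon GTPases listed, only 3 were measured. These 3 were all lower, with differences of -1.04 for Gbp4 (adjusted p = 0.0184), -0.70 for Gbp9 (adjusted p = 0.0301) and -0.51 for Gbp8 (adjusted p = 0.00723). Of 16 other type I targets 3 were lower and none was higher, with a list median of -0.24. Ifi27l2a had the largest difference of them, -1.75 ± 0.36 (adjusted p = 0.00581). It read 8.19 and 7.55 in Normal, 9.38, 9.09 and 9.02 in Hyperplasia, 7.61, 6.12 and 7.23 in Carcinoma and 6.45, 6.77 and 7.20 in Late carcinoma, so that Hyperplasia was again the highest. Tor3a (-0.71, adjusted p = 0.00512) and the nuclear body protein gene Sp100 (-0.78, adjusted p = 0.0121) also fell. Of 10 further antigen-processing genes Psmb10, the third immunoproteasome subunit, was lower (-0.40, adjusted p = 0.0004). Of the chemokines Cxcl9, Cxcl10 and Cxcl11 none passed in limma, also without adjustment.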

How the data were processed

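RNA of sorted fibroblasts was hybridised to 11 Affymetrix Mouse Gene 1.0 ST arrays. The authors deposited log2 values of 35399 probe sets, made by robust multi-array averaging (RMA) in Partek (version 6.5, per the submitters' notes). Array medians ran from 5.28 to 5.39. A probe-to-gene table gave 21789 probe sets 1 symbol, 1621 several and 11989 none; the brightest per symbol left 19938 genes. Groups came from the sample labels. limma 3.58.1 in R 4.3.3 fitted a 2-group model (CAFs against Normal and Hyperplasia) and a 4-stage model with 7 residual degrees of freedom; Benjamini-Hochberg adjustment ran over all genes at 0.05. The fits were tested on simulated data. The study's own criterion was an unadjusted p under 0.05 with a fold over 1.5. All measured members were named; of the pathway lists, at most the 4 genes with the smallest p that passed, and fixed receptors and markers. Members and lists were chosen with earlier results of these data known. The number of arrays limits the precision. Alternatives covered centring, quantile scaling, dim genes, probe-set choice, the test, array weights, the tied pair and leaving out each array. Probe coordinates were not used.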

Additional observations from a re-analysis of the deposited data

Results flagged for a closer look

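Among 84 sets of levels (40 members and the 2 class means, each in the 6 CAF arrays and in the 5 others), 6 had a highest or lowest array whose gap to its neighbour took up more of the range than Dixon's critical value; chance alone gives about 1 in 20. Normal D5 was the low array in 4 of them. Its gap was 0.804 of the range for Mx1 (4.95, next 5.28), 0.785 for Rsad2 (4.74, next 5.62), 0.83 for Rtp4 (7.33, next 8.29) and 0.77 for Dhx58 (5.15, next 6.22). Hyperplasia D7 was high for Mx2, with a gap of 0.778 (5.53, next 5.09). Late carcinoma D8 was low among the CAF arrays for Gbp3, with a gap of 0.631 (6.0, next 6.39). None of these 6 members passed the test in CAFs.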

How the results depend on the processing

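The count of 13 members lower in CAFs became 20 with array weights (15.3% of all genes lower) and 7 under the study's threshold (1114 of 19938 genes lower). It became 8 to 20 when 1 array was left out, the lowest without Hyperplasia D7 (9.22% of all genes) and the highest without Normal D5 (10.9%). Across the 4 stages the count of 8 became 1 with one-way ANOVA contrasts, 15 with array weights, 3 without the tied pair and 1 to 9 when 1 array was left out (1 without Hyperplasia D6 or Hyperplasia D7, 2 without Hyperplasia D12, Late carcinoma D8 or Late carcinoma D9, 3 without Late carcinoma D11, 4 without Carcinoma D3 and 5 without Normal D5). The 9 of Carcinoma against Hyperplasia became 2 with ANOVA contrasts, 0 when only the arrays of the 2 stages were fitted, 5 with the term for the tied pair, 4 without the pair and 1 to 11 with 1 array left out (5 without Late carcinoma D11, 4 without Carcinoma D4, 3 without Hyperplasia D12, Carcinoma D3 or Late carcinoma D9, 2 without Hyperplasia D7 and 1 without Hyperplasia D6). The 16 of Late carcinoma against Hyperplasia became 9 with ANOVA contrasts and 5 to 19 with 1 array left out (5 without Late carcinoma D8, 7 without Hyperplasia D7 and 8 without Late carcinoma D9). Over all 19938 genes, ANOVA contrasts took the calls from 1802 to 493 across the 4 stages. They took them from 1845 to 858 in Carcinoma and from 2897 to 1881 in Late carcinoma against Hyperplasia. Where no count over all genes stands beside a stage count, a shift in members cannot be told apart from a shift in all calls. In Hyperplasia against Normal the 0 became 4, all higher, under the study's threshold, against 64 of all genes higher. Under that threshold 487 of all genes were lower in Carcinoma and 793 in Late carcinoma against Normal. The 1 of Carcinoma against Normal became 0 without dim genes, with ANOVA contrasts, with limma-trend, with only those arrays, and with the term for or without the tied pair, 2 with array weights or under the study's threshold, and 0 to 1 with 1 array left out (0 without Normal D2, Normal D5, Hyperplasia D7, Carcinoma D3, Late carcinoma D8, Late carcinoma D9 or Late carcinoma D11). The 1 of Late carcinoma against Normal became 0 without dim genes or without the pair, 7 with array weights, 2 with only those arrays, 5 under the study's threshold, and 0 to 3 with 1 array left out (0 without Normal D2 or Normal D5, 2 without Carcinoma D10 and 3 without Carcinoma D4). The difference of 0.19 between the class medians became 0.0345 without dim genes. The loss of Gbp5 without dim genes follows from its removal; the cause of the other shifts was not tested. Centring the arrays on their medians made 65.9% of all calls in CAFs lower, against 51.6% as deposited, with 17 members lower against 20.3% of all genes. For 40 single calls, 560 values came from median centring, ANOVA contrasts, the term for the tied pair and leaving out each array. Of these values 400 kept their side of the threshold, 160 kept only their direction and 0 turned. In all of these settings 14 of the 40 calls passed. The remaining settings were not part of this count. No paired analysis was made, because the sample titles name no pairs of arrays between stages. Precision rests on 2 or 3 arrays a stage, and 6 members lay below the median gene level.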
